A study of Mus musculus with 8 samples.

Results

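N-methyl-D-aspartate (NMDA) receptor genes, with genes for their scaffold and for 2 regulators, were followed in N134 cells, which the labels describe as a beta cell tumor line of the pancreas from C57BL/6 mice. The members were the 10 genes whose names in the deposited table of 23309 genes match Grin1, Grin2a, Grin2b, Grin2c, Grin2d, Grin3a, Dlgap1, Dlg4, Fmr1 or Hsf1. All 10 were found. In all, 4 libraries, numbered 5 to 8, came from cells given a GFP-tagged microRNA-431 overexpression construct (miR-431), and 4 libraries, numbered 1 to 4, came from cells with a LacZ control construct in the same GFP format (miR-LacZ). Both groups therefore carry a GFP construct and differ in its microRNA insert. The single comparison of the design is miR-431 against miR-LacZ. The labels do not say whether the cells of a group are 1 clone or a pool, or whether its 4 libraries are independent cultures, and the p-values below reflect the spread among these libraries, which may be technical.

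The NMDA receptor is a glutamate-gated channel that lets calcium into the cell. It is built from 2 copies of the obligatory GluN1 subunit (Grin1) together with GluN2 subunits (Grin2a to Grin2d), which set its kinetics, or GluN3 subunits (Grin3a), which lower its calcium entry. On the inside of the membrane GluN2 tails bind PSD-95 (Dlg4), which in turn holds GKAP (Dlgap1), a link to deeper scaffold proteins. FMRP (Fmr1) is an RNA-binding protein that restrains translation of many synaptic mRNAs, and HSF1 (Hsf1) is the main transcription factor of the heat shock response. In mouse models of pancreatic neuroendocrine tumors, signalling through this receptor has been linked to invasion, with GKAP, FMRP and HSF1 placed along that route.

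The overexpressed microRNA is shown first because it is the designed difference between the groups. Both mature arms are given as in RefSeq on GRCm38.p6, with the seed, bases 2 to 8, in capitals. They lie on the plus strand of chromosome 12, at chr12:109590459-109590479 and chr12:109590502-109590523.
mmu-miR-431-5p: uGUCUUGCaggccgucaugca
mmu-miR-431-3p: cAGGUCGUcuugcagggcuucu
The arms have different seeds, and the labels do not say which arm was active. The longest GENCODE M21 3′ UTR of each member was searched on the transcript strand for GCAAGAC (5p arm) and ACGACCT (3p arm), the DNA letters that pair with bases 2 to 8. Of the 10 members, 1 held a match: Grin2a had one 5p match, with an A after it, that starts 8204 bases after the stop codon in a UTR of 9929 bases. It is shown because no other member has one, at chr16:9569616-9569637 on the minus strand of GRCm38, with the match and its A in capitals.
Grin2a 5p match: ggcttcaggaagaaGCAAGACA
Shorter 5p matches, to bases 2 to 7 with an A after them, numbered 2 in Grin2b, 1 in Dlg4 and 1 in Grin2a. No share over all genes was taken for these shorter matches. Grin2c and Fmr1, which are called below, had no match of either kind to either arm in UTRs of 402 and 2288 bases. Among 10749 tested genes with a 3′ UTR (median length 1225 bases), 7.12% held a 5p match and 1.56% a 3p match. A match describes letters only, and binding was not measured.

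The promoter windows of Grin2c and Grin2d are shown because these are the GluN2 genes whose libraries did not overlap between the groups. Each window runs from 250 bases before to 50 after the start, from RefSeq on GRCm38.p6, with GC boxes (GGGCGG or its reverse complement CCGCCC) in capitals. Grin2c lies at chr11:115267194-115267493 and Grin2d at chr7:45866632-45866931, both on the minus strand. A window was found for 6 of the 10 members.
Grin2c promoter: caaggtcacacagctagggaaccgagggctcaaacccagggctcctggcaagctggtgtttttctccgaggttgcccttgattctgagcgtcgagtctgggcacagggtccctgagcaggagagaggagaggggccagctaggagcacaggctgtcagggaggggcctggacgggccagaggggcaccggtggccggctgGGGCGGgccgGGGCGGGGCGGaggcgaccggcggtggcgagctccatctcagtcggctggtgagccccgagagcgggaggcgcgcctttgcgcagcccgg
Grin2d promoter: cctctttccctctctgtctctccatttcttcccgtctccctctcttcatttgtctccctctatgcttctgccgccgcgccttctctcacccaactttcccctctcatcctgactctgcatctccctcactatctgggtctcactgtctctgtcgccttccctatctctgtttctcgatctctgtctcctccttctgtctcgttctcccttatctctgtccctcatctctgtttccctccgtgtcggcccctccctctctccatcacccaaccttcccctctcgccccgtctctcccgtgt
The Grin2c window held 3 GC boxes, of which the last 2 share a base. The Grin2d window held 0 GC boxes. Over 32851 promoter windows, 35.7% held at least 1 GC box.

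The deposited values are FPKM, fragments per kilobase of transcript scaled to the size of the library, so levels can be compared between genes. Their 75th percentile was nearly equal in the 8 libraries, at 14.5 to 14.7 FPKM in both groups together, as a further scaling step would give, and whether one was applied is not stated. The depth behind each value is unknown, since no source used here gives read counts. Summed FPKM per library lay between 521889 and 625005. Mir431 was at 18114 to 37769 FPKM in the 4 miR-431 libraries and listed at 0 in the 4 miR-LacZ libraries, which matches the labels. The 8 beta cell markers on the marker list were all at the level tested or above, with summed levels of 20729 to 33397 FPKM in miR-431, against 25011 to 40918 FPKM in miR-LacZ. Of these 8, 3 were called lower in miR-431 by the test described below, against 13.8% over all genes tested. Ins1 averaged 389 ± 126 FPKM in miR-431, against 3332 ± 1405 FPKM in miR-LacZ (SD, n = 4 each; limma adjusted p = 0.000148). Pdx1 and Nkx6-1 fell by 0.52 each on the log2 scale (adjusted p = 0.0227 and 0.00537). Ins2, Iapp, Slc30a8, Slc2a2 and G6pc2 were not called. Among these, Iapp averaged 8676 FPKM in miR-431, against 6909 FPKM in miR-LacZ, and Ins2 16593 against 21988 FPKM. Libraries miR-431 5 and miR-LacZ 1, one from each group, stood apart from the other 6: among genes below 0.1 FPKM, a pair of libraries shared its commonest ratio (within 0.02 on the log2 scale) for 1.78% to 2.41% of genes where 1 of them was in the pair, against 18.5% to 23.8% within the other 6. The pair of miR-431 5 with miR-LacZ 1 shared its commonest ratio for 8.79% of such genes. Values with and without these libraries are therefore given beside the members.

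The 11807 genes that reached 1 FPKM in 4 or more libraries were tested with limma on log2(FPKM + 1), and those with a Benjamini-Hochberg adjusted p below 0.05 were called. Fold changes on this scale are miR-431 minus miR-LacZ, and they understate the change of genes at low levels. In bulk RNA, fewer cells of a type and less RNA per cell cannot be told apart. Of the 10 members, 6 passed the level filter. Grin2c rose, Fmr1 fell, and Grin1, Dlgap1, Dlg4 and Hsf1 were not called. Over all genes tested, 29.3% were called, 15.4% higher and 13.8% lower in miR-431, so 2 calls among 6 tested members is a share near the background. Grin2a, Grin2b, Grin2d and Grin3a were below the filter and were compared 1 at a time by an exact two-sided permutation test of FPKM over the 70 arrangements of 4 against 4 libraries, whose smallest p is 0.0286.

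**Figure D1:**
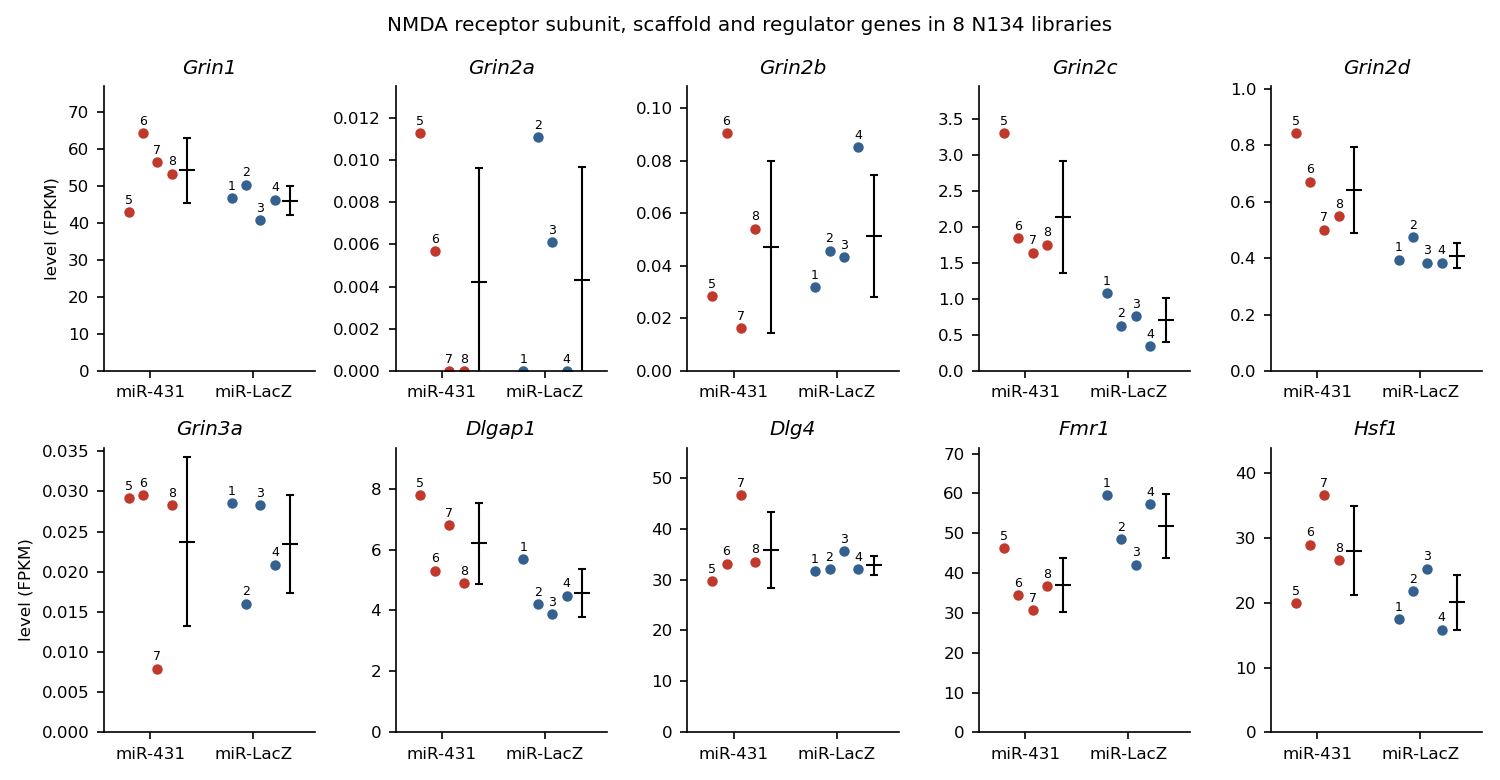
Level in FPKM of the 10 members (vertical axes from 0, a scale for each gene) in the 4 miR-431 libraries (red, left) and the 4 miR-LacZ libraries (blue, right). Numbers are library numbers, and black marks are the group mean with its SD, which for Grin2a runs below the axis. Grin2c and Grin2d are the only panels of the 10 in which the groups do not overlap.

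Grin1 encodes GluN1, the subunit that every NMDA receptor needs, and it was the most abundant subunit gene in both groups. Its level was 42.9, 64.1, 56.4 and 53.3 FPKM in miR-431 libraries 5, 6, 7 and 8, against 46.7, 50.3, 40.6 and 46.3 FPKM in miR-LacZ libraries 1, 2, 3 and 4. Library 5 was the lowest miR-431 library and lay inside the miR-LacZ range, while the other 3 lay above it. The means were 54.2 ± 8.81 FPKM in miR-431, against 46.0 ± 4.0 FPKM in miR-LacZ (SD, n = 4 each), a log2 difference of 0.22 (SE 0.124) that was not called (limma adjusted p = 0.204). In the 6 libraries other than 5 and 1 the log2 difference was 0.34 (adjusted p = 0.0676), and between libraries 5 and 1 it was -0.12. Without library 5 alone the gene was called, at 0.33 (adjusted p = 0.0493). The Grin1 locus (mm9, chr2:25145430-25174683) is shared in the deposited table with E130003G02Rik and Lrrc26, which were at 0.293 to 0.438 and 0.231 to 0.409 FPKM in miR-431, against 0.234 to 0.423 and 0.525 to 0.948 FPKM in miR-LacZ.

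Grin2c encodes GluN2C, a subunit of receptors with low conductance and weak magnesium block that is best known from cerebellar granule cells. Its level was 3.30, 1.84, 1.64 and 1.75 FPKM in miR-431 libraries 5 to 8, against 1.08, 0.627, 0.757 and 0.348 FPKM in miR-LacZ libraries 1 to 4. All 4 miR-431 libraries lay above all 4 miR-LacZ libraries, and the library that stood apart was the highest of its group on both sides. Mean levels were 2.13 ± 0.779 FPKM in miR-431, against 0.703 ± 0.303 FPKM in miR-LacZ (SD, n = 4 each), a ratio of 3.03, so Grin2c rose, by 0.87 on the log2(FPKM + 1) scale (SE 0.181, limma adjusted p = 0.00605). With pseudocounts of 0.1 and 0.01 the log2 difference was 1.5 and 1.64. The gene was called in every setting tried that kept it, including each library left out in turn (0.71 to 0.97). Between libraries 5 and 1 the log2 difference was 1.05, and within the other 6 libraries it was 0.81 (adjusted p = 0.00644). In miR-LacZ only library 1 reached 1 FPKM, so Grin2c passed the level filter through the group in which it was high. With no level filter the adjusted p was 0.0143.

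Grin2d encodes GluN2D, the subunit of slowly closing receptors typical of the immature brain (mm9, chr7:53087852-53122051). Its level was 0.843, 0.672, 0.501 and 0.549 FPKM in miR-431 libraries 5 to 8, against 0.394, 0.475, 0.384 and 0.384 FPKM in miR-LacZ libraries 1 to 4. The groups did not overlap, and the nearest libraries, miR-431 7 and miR-LacZ 2, were close. The means were 0.641 ± 0.152 FPKM in miR-431, against 0.409 ± 0.0438 FPKM in miR-LacZ (SD, n = 4 each), and the unadjusted p was 0.0286 by the exact permutation test, the smallest this design allows. Of the genes tested, 31.1% had groups that did not overlap, in either direction. Grin2d lies below the level tested, and the share among genes at its level was not taken. With no level filter, limma gave a log2 difference of 0.22 (adjusted p = 0.0481) with all libraries and 0.15 (adjusted p = 0.111) without libraries 5 and 1. Leaving out 1 library ended that call in 7 of 8 fits (adjusted p 0.0331 to 0.117).

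The GluN2 genes best known from the forebrain were close to 0 in both groups. Grin2b, which encodes GluN2B (mm9, chr6:135679822-136123529), was at 0.0286, 0.0905, 0.0162 and 0.0542 FPKM in miR-431 libraries 5 to 8, against 0.0319, 0.0458, 0.0433 and 0.0852 FPKM in miR-LacZ libraries 1 to 4 (exact permutation p = 0.83). Grin2a, which encodes GluN2A (mm9, chr16:9577802-9992626), had 0.0113 and 0.00567 FPKM in miR-431 libraries 5 and 6, against 0.0111 and 0.00611 FPKM in miR-LacZ libraries 2 and 3. It was listed at 0 in the other 4 libraries (exact permutation p = 1). Grin2a is also the member with the 5p match to bases 2 to 8, and at these levels no difference was detectable. Grin3a, which encodes GluN3A (mm9, chr4:49674482-49858641), was at 0.0291, 0.0296, 0.00793 and 0.0283 FPKM in miR-431 libraries 5 to 8, against 0.0285, 0.0160, 0.0283 and 0.0209 FPKM in miR-LacZ libraries 1 to 4 (exact permutation p = 0.83). All 3 genes had overlapping groups. Without libraries 5 and 1 their log2 differences, fitted with no level filter, were -0.0065 for Grin2b, -0.0055 for Grin2a and 0.00025 for Grin3a, and none was called (adjusted p 0.704 to 1). Ppp3r2, which shares the Grin3a locus in the table, was listed at 0 in 7 of the 8 libraries and at 0.00859 FPKM in miR-LacZ 2.

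The GluN2 transcripts summed to 2.16 to 4.18 FPKM in miR-431, against 0.817 to 1.51 FPKM in miR-LacZ. Grin2c made up 70.5% to 78.9% of that sum in miR-431 and 42.6% to 71.7% in miR-LacZ, and Grin2d made up 20.2% to 25.8% in miR-431 and 26.2% to 47.0% in miR-LacZ. The Grin2c shares overlapped between the groups and the Grin2d shares did not. Grin1 exceeded the summed GluN2 level 10.3 to 26.1 times in miR-431 and 31 to 56.6 times in miR-LacZ. Both ratios use the same few FPKM of Grin2c and Grin2d, so they restate those genes and carry no test of their own.

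**Figure D2:**
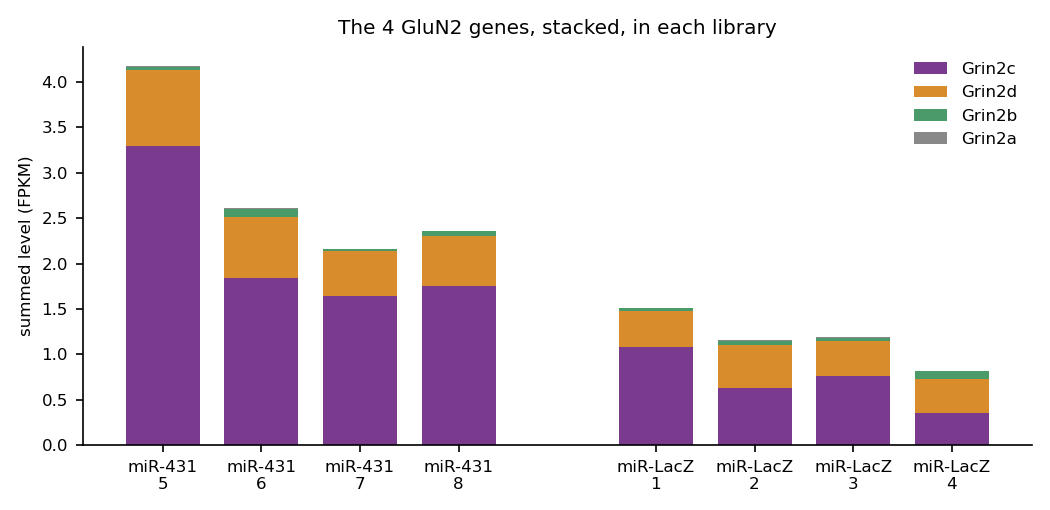
Summed FPKM of the 4 GluN2 genes (vertical axis from 0) in each miR-431 library (left) and each miR-LacZ library (right), stacked by gene. The stacks reach 2.16 to 4.18 FPKM in miR-431, against 0.817 to 1.51 FPKM in miR-LacZ, mostly Grin2c and Grin2d, with Grin2a too low to be seen.

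Among the scaffold genes, Dlgap1 and Dlg4 were expressed in every library and neither was called. Dlgap1, which encodes GKAP, was at 7.79, 5.30, 6.81 and 4.89 FPKM in miR-431 libraries 5 to 8, against 5.69, 4.21, 3.88 and 4.49 FPKM in miR-LacZ libraries 1 to 4. Libraries 6 and 8 of miR-431 lay below library 1 of miR-LacZ, so the groups overlapped. The means were 6.20 ± 1.34 FPKM in miR-431, against 4.57 ± 0.785 FPKM in miR-LacZ (SD, n = 4 each), a log2 difference of 0.36 (SE 0.147, limma adjusted p = 0.0897). It became a call with a term for libraries 5 and 1 (0.36, adjusted p = 0.0237), with array weights (0.27, adjusted p = 0.0476) and without miR-LacZ 1 (0.45, adjusted p = 0.0459). Leaving out both libraries gave 0.35 without a call (adjusted p = 0.0833).

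Dlg4, which encodes PSD-95, was at 29.7, 33.1, 46.6 and 33.5 FPKM in miR-431 libraries 5 to 8, against 31.6, 32.1, 35.6 and 32.1 FPKM in miR-LacZ libraries 1 to 4. Library 7 of miR-431 stood above all others, and the remaining 7 libraries lay between 29.7 and 35.6 FPKM. The means were 35.7 ± 7.43 FPKM in miR-431, against 32.8 ± 1.88 FPKM in miR-LacZ (SD, n = 4 each), a log2 difference of 0.10 (SE 0.128, limma adjusted p = 0.589). Without library 7 the difference was -0.031, and in the 6 libraries other than 5 and 1 it was 0.16 (adjusted p = 0.433).

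Fmr1, which encodes the translational repressor FMRP, fell. It was at 46.3, 34.4, 30.6 and 36.7 FPKM in miR-431 libraries 5 to 8, against 59.6, 48.5, 42.1 and 57.2 FPKM in miR-LacZ libraries 1 to 4. Library 5 of miR-431 lay above library 3 of miR-LacZ, and that is the only pair out of order. The means were 37.0 ± 6.69 FPKM in miR-431, against 51.9 ± 8.06 FPKM in miR-LacZ (SD, n = 4 each), so miR-431 was at 71.4% of miR-LacZ, a log2 difference of -0.48 (SE 0.145, limma adjusted p = 0.0326). The call lay near the threshold. Leaving out 1 library ended it in 6 of 8 fits (-0.59 to -0.39, adjusted p 0.0125 to 0.0848) and kept it without miR-431 5 or without miR-LacZ 3. Scaling to summed FPKM without Mir431 gave -0.44 (adjusted p = 0.112). Within the 6 libraries other than 5 and 1 the log2 difference was -0.52 (adjusted p = 0.0264), and between those 2 it was -0.36.

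Hsf1, which encodes the master regulator of heat shock genes, was at 20.0, 29.0, 36.7 and 26.6 FPKM in miR-431 libraries 5 to 8, against 17.5, 21.8, 25.3 and 15.9 FPKM in miR-LacZ libraries 1 to 4. Library 5 of miR-431 was inside the miR-LacZ range and the other 3 were above it. The means were 28.1 ± 6.89 FPKM in miR-431, against 20.1 ± 4.25 FPKM in miR-LacZ (SD, n = 4 each), a log2 difference of 0.45 (SE 0.187) that was not called (limma adjusted p = 0.0957). In the 6 libraries other than 5 and 1 the log2 difference was 0.54 (adjusted p = 0.0701), and between libraries 5 and 1 it was 0.18. Without library 5 alone it was called, at 0.60 (adjusted p = 0.0311), and also with array weights (0.38, adjusted p = 0.0161) and with scaling to summed FPKM without Mir431 (0.49, adjusted p = 0.0345).

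By mean level, the order in miR-431 was Grin1, Fmr1, Dlg4, Hsf1, Dlgap1, Grin2c, Grin2d, Grin2b, Grin3a and Grin2a. The ranges of the first 4 overlapped from each gene to the next, as did those of the last 3. In miR-LacZ, Fmr1 came before Grin1, with overlapping ranges, and the rest of the order was the same. Grin2c and Grin2d also overlapped there. All other neighbours in the 2 orders were separated.

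**Figure D3:**
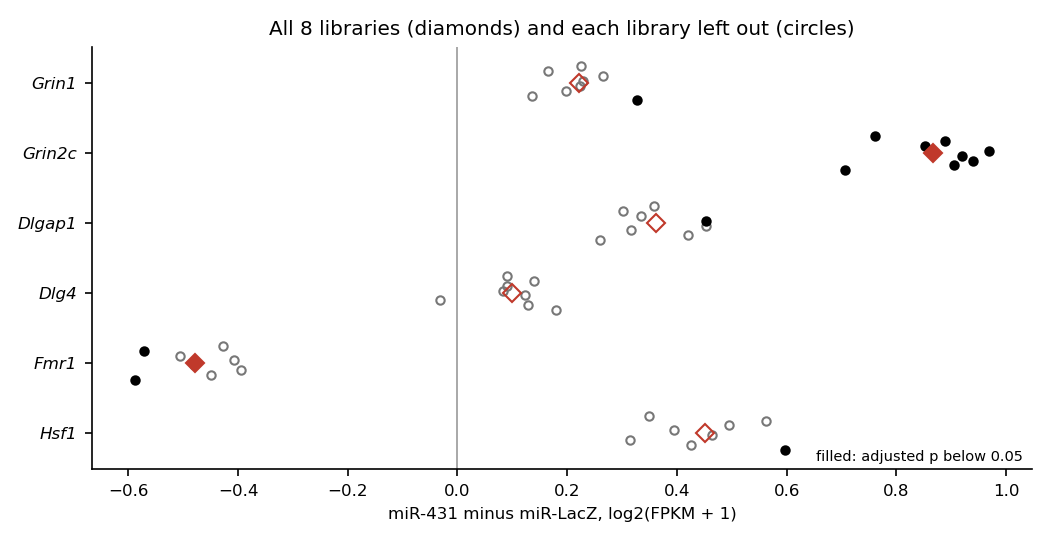
Difference of miR-431 minus miR-LacZ in log2(FPKM + 1) (horizontal axis) for the 6 tested members, from all 8 libraries (red diamonds) and with each library left out (circles). Filled symbols have a limma adjusted p below 0.05. Grin2c stays filled between 0.71 and 0.97, and Fmr1 is filled in 2 of 8 circles.

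Positions along the chromosome were compared because neighbouring genes can shift together in a cell line. The median change of the 31 tested genes around each member, the member included, was taken in mm9. Grin2c (chr11:115110482-115128557) differed from its window: the window median was -0.23, with 22 of 30 neighbours below 0. The adjoining tested genes Tmem104 and Fdxr were at -0.25 and -0.31 (adjusted p = 0.0696 and 0.0601). With the window median removed in each library Grin2c was at 1.10 (limma adjusted p = 0.00556). Fmr1 (chrX:65931729-65971136) moved in the direction of its window, whose median was -0.25, and with it removed stood at -0.23 (adjusted p = 0.191). Hsf1 (chr15:76307874-76331402) had a window median of 0.35, with 14 of 30 neighbours called higher, 0 called lower and 28 above 0. Over all genes tested, 15.4% were called higher and 13.8% lower. With the window median removed Hsf1 was at 0.10 (adjusted p = 0.670). Dlgap1 (chr17:70774131-71170753) had a window median of 0.25 and was at 0.11 with it removed (adjusted p = 0.625). Windows around Grin1 and Dlg4 (chr11:69832106-69859033) had medians of 0.02 and -0.12. Of 30 neighbours each, 2 were called higher and 11 lower around Grin2c, and 3 and 10 around Fmr1. The same counts were 11 and 1 around Dlgap1, 3 and 1 around Grin1, and 2 and 7 around Dlg4. DNA copy number was not measured, and what moves these windows was not tested.

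**Figure D4:**
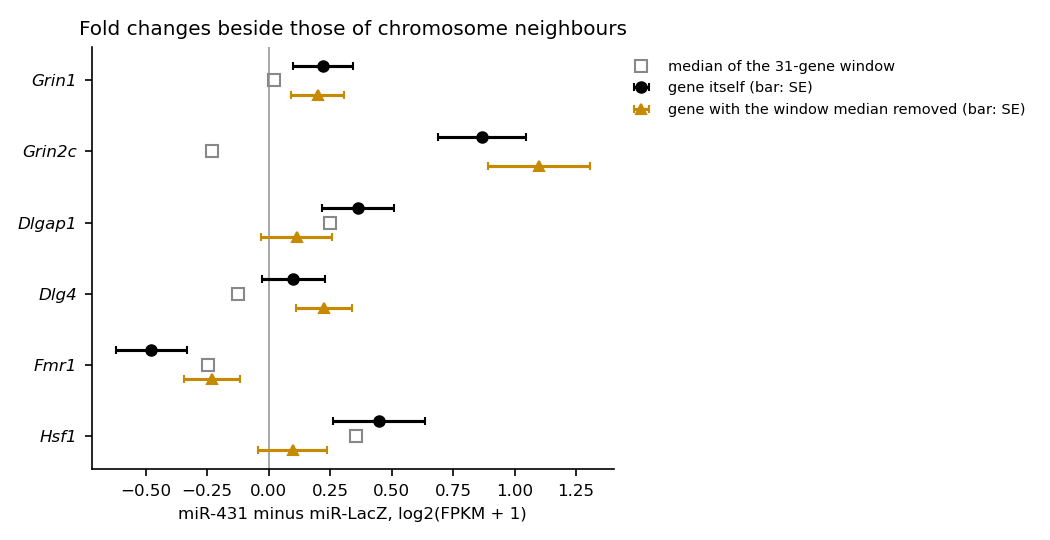
Difference of miR-431 minus miR-LacZ in log2(FPKM + 1) (horizontal axis) for each tested member (black circles with SE), the median of the 31 tested genes around it (open squares), and the member with that median removed (triangles with SE). Grin2c lies 1.10 from its window, whereas Hsf1 and Dlgap1 lie 0.10 and 0.11 from theirs.

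The tested genes whose pattern over the 8 libraries was most like Grin2c, by the root mean square difference of centred log2(FPKM + 1), included Fgfr3 (0.0856), which encodes a receptor tyrosine kinase, and Osbpl3 (0.124), which encodes an oxysterol-binding protein relative. For Fmr1 they were Actr2 (0.0635), Zbtb34 (0.0644) and Pdcl (0.0672). These genes were picked for likeness, so their direction carries no further evidence.

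Related genes on 6 lists were counted in the same fit. Together they hold 94 genes, of which 71 were tested, and 13 rose and 7 fell, or 28.2% called against 29.3% over all genes tested. The median change over the 71 was -0.01, as over all genes tested.

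Of the signalling genes that act downstream of the receptor, the longest list, 20 of 23 in the table were tested. Among them 7 rose and 0 fell, or 35% called against 29.3% over all genes tested, with a median change of 0.12. By direction, 15.4% of all genes tested were called higher and 13.8% lower. Ptk2b, a calcium-activated tyrosine kinase that acts on NMDA receptors through Src, averaged 12.0 ± 2.43 FPKM in miR-431, against 6.07 ± 1.45 FPKM in miR-LacZ (SD, n = 4 each; log2 difference 0.88, limma adjusted p = 0.00353). Rasgrf2 and Rasgrf1, exchange factors that pass calcium signals to Ras, rose by 0.73 (adjusted p = 0.000554) and 0.55 (adjusted p = 0.0376). Rasgrf1 had overlapping groups and lost its call in 6 of 8 fits with a library left out. Camk2b and Camk4, calmodulin-dependent kinases, rose by 0.57 (adjusted p = 0.00578) and 0.53 (adjusted p = 0.0212). Dapk1, a death-associated kinase, rose by 0.50 (adjusted p = 0.00671). The seventh call was Mef2d. Leaving out 1 library ended the Camk4 call in 3 of 8 fits. With the neighbour median removed, 3 genes of the list were called in place of 7, namely Ptk2b, Rasgrf2 and Camk2b. Rasgrf1 (0.34, adjusted p = 0.185), Camk4 (0.37, adjusted p = 0.0898), Dapk1 (0.31, adjusted p = 0.0725) and Mef2d were not among them.

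Of 13 other postsynaptic scaffold genes tested of 18, 1 rose and 3 fell, or 30.8% called against 29.3% over all genes tested. The median change was -0.10. Apba1, an adaptor that binds CASK, was at 13.9 ± 0.588 FPKM in miR-431, against 8.73 ± 0.994 FPKM in miR-LacZ (SD, n = 4 each; log2 difference 0.62, limma adjusted p = 0.000986). The master scaffold gene Shank2 fell by 0.47 on the log2 scale (adjusted p = 0.0459), Dlg3, a relative of PSD-95, by 0.28 (adjusted p = 0.0229) and Homer1, which ties Shank to metabotropic receptors, by 0.27 (adjusted p = 0.0438). Leaving out 1 library ended the call of Homer1 in all 8 fits, of Shank2 in 7 and of Dlg3 in 3. Removing the neighbour median also ended that of Shank2 (-0.44, adjusted p = 0.0769). Dlg3 turned to 0.42 with its window median removed and was then called higher (adjusted p = 0.0103). In that setting 6 genes of the list were called in place of 4. Among the untested genes of the list, 3 had groups that did not overlap: Shank3 at 0.282 to 0.576 FPKM in miR-431, against 0.00374 to 0.0753 FPKM in miR-LacZ, Shank1 at 0.0928 to 0.184 and 0.0249 to 0.0666 FPKM, and Homer2 at 0.00548 to 0.0276 and 0.0279 to 0.0710 FPKM. These 3 were named after their values were seen, and no share over all genes below the level tested was taken.

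Of the other subunit and auxiliary genes, 2 of 4 were tested. Grina, an NMDA receptor-associated protein, was at 190, 178, 233 and 164 FPKM in miR-431 libraries 5 to 8, against 157, 124, 129 and 68.4 FPKM in miR-LacZ libraries 1 to 4. It rose by 0.72 (limma adjusted p = 0.0380), and lost the call in 6 of 8 fits with a library left out. Grina lies among the 30 neighbours of Hsf1, and with its own window median removed it was at 0.35 (adjusted p = 0.237). Neto2 was not called.

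Genes that supply glutamate or the co-agonist gave 2 rises and 1 fall among 10 tested of 19, with a median change of 0.20. Called genes made up 30% of those tested, against 29.3% over all genes tested. Slc1a2, a glutamate uptake transporter typical of astrocytes, averaged 0.547 ± 0.180 FPKM in miR-431, against 2.64 ± 0.996 FPKM in miR-LacZ (SD, n = 4 each). It fell by 1.21 on the log2 scale (limma adjusted p = 0.000852), and it passed the level filter through miR-LacZ alone. Gls2, a glutaminase that makes glutamate, rose by 0.92 (adjusted p = 0.000256), and Slc1a5, a neutral amino acid carrier that takes up glutamine, rose by 0.91 (adjusted p = 0.00147). The neuronal vesicular transporters Slc17a6, Slc17a7 and Slc17a8 were below the level tested.

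Around FMRP, 9 of 9 genes were tested, and 1 rose and 1 fell, or 22.2% called against 29.3% over all genes tested. Arc, whose mRNA FMRP is known to bind in mouse brain, averaged 7.59 ± 0.949 FPKM in miR-431, against 3.55 ± 0.955 FPKM in miR-LacZ (SD, n = 4 each; log2 difference 0.94, limma adjusted p = 0.00230). Nufip1, an FMRP-interacting protein, fell by 0.24 (adjusted p = 0.0382), a call that leaving out 1 library ended in 7 of 8 fits and removing the neighbour median ended too (-0.088, adjusted p = 0.477). FMRP's relatives Fxr1 and Fxr2 were not called.

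Of 17 heat shock genes tested of 20, 1 rose and 2 fell, or 17.6% called against 29.3% over all genes tested. The median change was -0.13. Hsbp1, which encodes a binding protein that restrains HSF1, was at 150 ± 9.81 FPKM in miR-431, against 99.2 ± 17.3 FPKM in miR-LacZ (SD, n = 4 each; log2 difference 0.61, limma adjusted p = 0.00771). The co-chaperone Stip1 fell by 0.47 (adjusted p = 0.0227) and Hspa4 by 0.26 (adjusted p = 0.0387). Leaving out 1 library ended the call of Stip1 in 3 of 8 fits and of Hspa4 in 6. With the neighbour median removed, 0 genes of the list were called: Hsbp1 was at 0.10 (limma adjusted p = 0.544), Stip1 at -0.33 (adjusted p = 0.0502) and Hspa4 at -0.039 (adjusted p = 0.755). The inducible chaperones Hspa1a, Hspa1b and Dnajb1, whose transcription HSF1 drives, had log2 differences of -0.33, -0.28 and -0.13 and were not called. Uncalled genes of the list lay on both sides of 0, with Hsf4 at 0.35, Bag3 at 0.20 and Hsp90ab1 at 0.19. HSF1 activity was not measured.

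**Figure D5:**
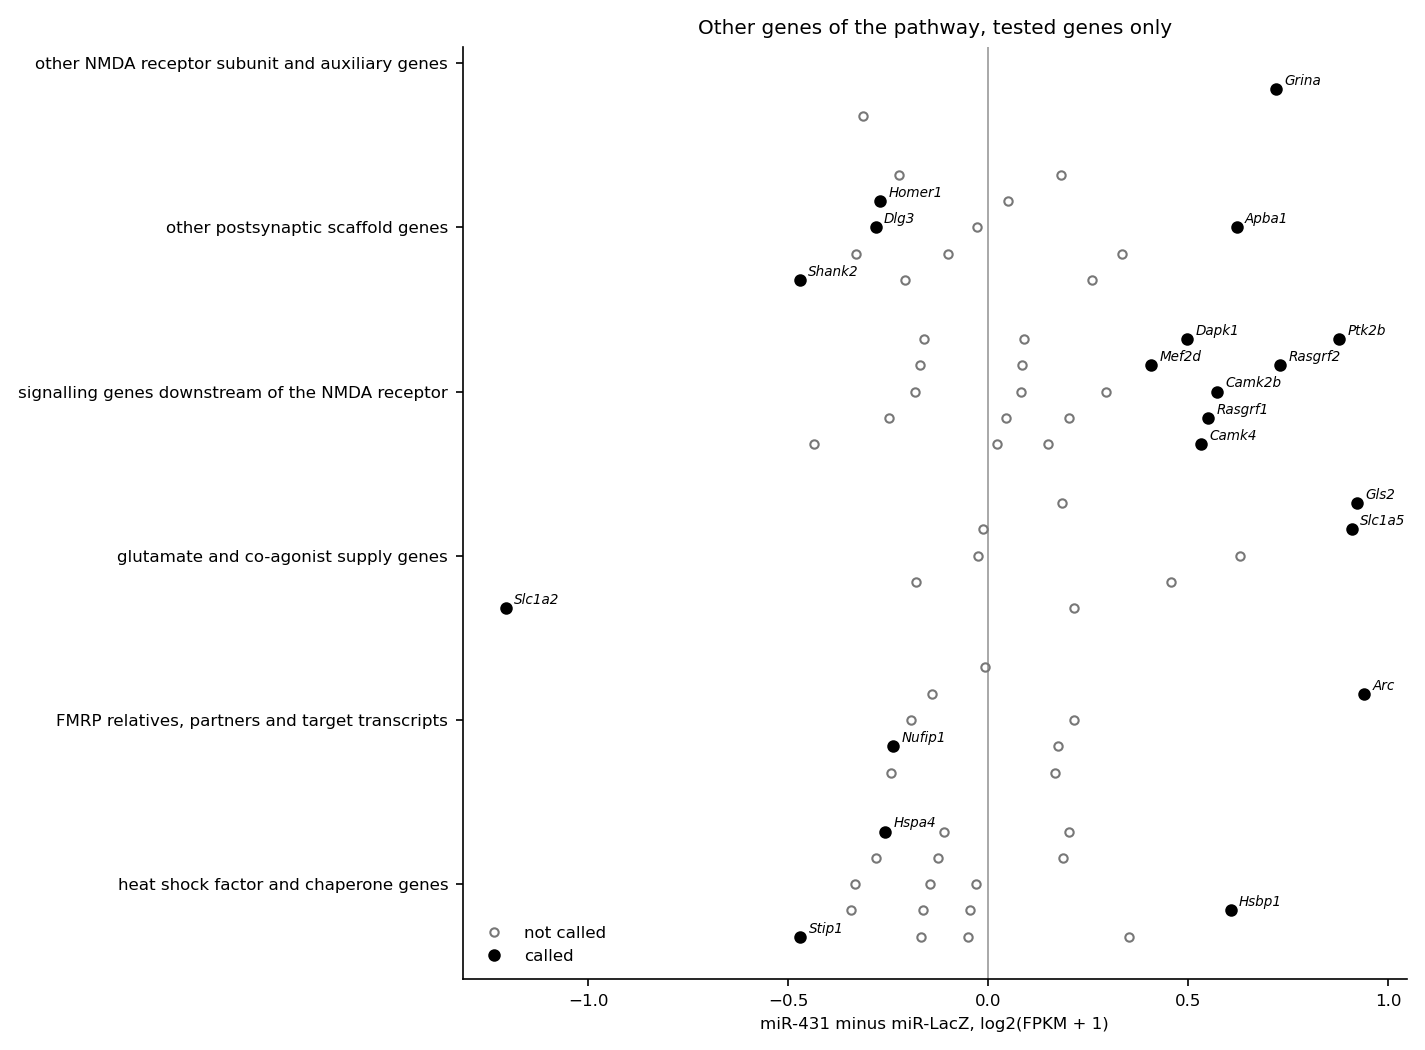
Difference of miR-431 minus miR-LacZ in log2(FPKM + 1) (horizontal axis) for the 71 tested genes of the 6 lists, 1 point a gene, spread vertically within its list only for legibility. Filled points are called at a limma adjusted p below 0.05 and named. The 7 called signalling genes lie at 0.41 or more.

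Neuron markers summed to 257 to 312 FPKM in miR-431, against 264 to 344 FPKM in miR-LacZ. Of 6 tested, 2 were called higher (Syt1 and Stmn2), against 15.4% over all genes tested. The other tested neuron genes were not called. Tubb3, Snap25 and Map2 were at -0.34, -0.13 and -0.06 on the log2 scale, and Elavl3 was at 0.21. Astrocyte and Schwann cell markers summed to 8.60 to 11 FPKM in miR-431, against 6.43 to 8.43 FPKM in miR-LacZ, with Sox10 at 0 in every library and, of 3 tested, Aqp4 called higher and Slc1a2, also on the supply list, called lower. Endothelial markers summed to 1.40 to 2.86 FPKM in miR-431, against 0.564 to 0.763 FPKM in miR-LacZ. That sum was mostly Plvap, at 1.30 to 2.81 FPKM in miR-431, against 0.440 to 0.669 FPKM in miR-LacZ. Plvap, the 1 tested, was called higher, and it passed the level filter through miR-431 alone. Pecam1 averaged 0.0568 FPKM in miR-431, against 0.0969 FPKM in miR-LacZ, with overlapping groups. Cdh5 and Kdr were at 0.00988 FPKM or less in every library. Fibroblast markers were at 0.691 to 1.05 FPKM in miR-431, against 1.92 to 3.20 FPKM in miR-LacZ, and acinar markers at 0.0838 to 0.402 and 1.09 to 3.07 FPKM. The 1 tested gene of each, Pdgfra and Cela1, was called lower, and each made up most of its list's sum in miR-LacZ. Both passed the level filter through miR-LacZ alone, and in miR-431 they reached at most 0.354 and 0.318 FPKM. Of the untested fibroblast genes, Col1a1, Dcn and Lum averaged lower in miR-431. Col1a2 averaged higher (0.212 FPKM in miR-431, against 0.187 FPKM in miR-LacZ), and all of these had overlapping groups. Summed leukocyte markers (0.790 to 1.62 FPKM in miR-431, against 0.566 to 1.21 FPKM in miR-LacZ) overlapped between the groups. So did summed duct markers (0.428 to 0.692 and 0.454 to 0.586 FPKM). No duct gene was tested, and the 1 leukocyte gene tested was not called. Of the untested leukocyte genes, Csf1r did not overlap, at 0.0321 to 0.106 FPKM in miR-431, against 0 to 0.0130 FPKM in miR-LacZ. Ptprc and Cd3e had overlapping groups. The part of these markers in the members' values was not tested.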

How the data were processed

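RNA from 8 libraries of N134 cells was read as paired reads of 51 bases, per the labels' protocols. Per the submitters' processing notes, the tools included Cufflinks 2.1.1, TopHat2 2.0.11, CASAVA 1.8.2 and cutadapt, and the build was mm9. The deposited values are the authors' FPKM of 23309 genes in a single table. Use of strand is not stated, so genes sharing a locus may share reads.

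On log2(FPKM + 1), the 11807 genes reaching 1 FPKM in 4 or more libraries were fitted with limma 3.58.1 (R 4.3.3; trended prior variance), 4 miR-431 against 4 miR-LacZ libraries, without covariates. Members below that level were compared by exact permutation (scipy 1.17.1). The fit was also run on simulated data with independent normal noise for each gene. Those data held no library that stood apart and no shared shift of neighbours, so that run does not bear on single calls here. The text names all 10 members, up to 6 called genes per list with the largest change, the 3 genes most like each called member, and markers as sums; one gene that this rule selects is not reported here. Some genes outside this rule, such as Neto2, Fxr1 and Hspa1a, are named as well. Members and lists were chosen with earlier results of these data known. Seeds, promoters and 3′ UTRs came from RefSeq and GENCODE M21 on GRCm38, used for sequence only. Alternatives changed the pseudocount, filter, scaling, trend, weights and libraries, added a term for miR-431 5 and miR-LacZ 1, or removed the neighbour median; fits on the unfiltered table for members below the level were added after seeing the data.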

Additional observations from a re-analysis of the deposited data

Results flagged for a closer look

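Among 58 groups of 4 libraries examined (29 genes in 2 groups each), 5 had a library far from the others by Dixon's criterion on the gap to the nearest library. Chance flags about 1 group in 20.

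Grin2c in miR-431 had library 5 at 3.30 FPKM, with the next at 1.84 FPKM. Grin2d in miR-LacZ had library 2 at 0.475 FPKM, with the next at 0.394 FPKM. Grin3a in miR-431 had library 7 at 0.00793 FPKM, with the next at 0.0283 FPKM. Dlg4 in miR-LacZ had library 3 at 35.6 FPKM, with the next at 32.1 FPKM. Apba1 in miR-431 had library 6 at 14.8 FPKM, with the next at 13.7 FPKM.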

How the results depend on the processing

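No paired analysis was possible because the groups share no replicate numbers (5 to 8 in miR-431, 1 to 4 in miR-LacZ). Under 12 alternatives no tested member changed direction, and Grin2c kept its call in the 11 that kept the gene, at 0.76 to 1.64. The Fmr1 call was lost with no level filter (-0.48, adjusted p = 0.0550), with quantile normalization (-0.46, 0.0503), with scaling to summed FPKM without Mir431 (-0.44, 0.112) and with the neighbour median removed (-0.23, 0.191). Dlgap1 became a call with array weights (0.27) and with a term for libraries 5 and 1 (0.36). Hsf1 became a call with array weights (0.38) and with summed FPKM (0.49). Grin2d, in the added fit without libraries 5 and 1, was at 0.15 (adjusted p = 0.111). Genes called numbered 5845 with array weights and 2293 with the neighbour median removed, against 3454. Members called numbered 4 with array weights, and 1 with a filter of 5 FPKM, with quantile normalization and with the neighbour median removed, against 2. Called list genes numbered 31 with array weights and 15 with the neighbour median removed, against 20. Among list genes, Dlg3 was reversed with the neighbour median removed (0.42, limma adjusted p = 0.0103).

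Leaving out each library gave 2480 to 3350 genes, 1 to 4 members and 12 to 18 list genes called. The ranges were 0.14 to 0.33 for Grin1, 0.71 to 0.97 for Grin2c, 0.26 to 0.45 for Dlgap1, -0.031 to 0.18 for Dlg4 (below 0 without miR-431 7), -0.59 to -0.39 for Fmr1 and 0.32 to 0.60 for Hsf1. In the unfiltered table they were -0.0035 to 0.0032 for Grin2a, -0.026 to 0.0092 for Grin2b, 0.16 to 0.26 for Grin2d and -0.0031 to 0.0079 for Grin3a. The cause of these changes was not tested. Depth is unknown, which limits the members near 0 most.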

Other observations

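Asgr2, the tested gene next to Dlg4 on chromosome 11 in the deposited table, was at 0.101, 0.0414, 0.125 and 0.694 FPKM in miR-431 libraries 5 to 8, against 155, 222, 108 and 89.0 FPKM in miR-LacZ libraries 1 to 4. It encodes a subunit of the asialoglycoprotein receptor, and it was named after its values were seen. Dlg4 itself did not follow it, at 29.7 to 46.6 FPKM in miR-431, against 31.6 to 35.6 FPKM in miR-LacZ.

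Within each group, the library that stood apart held the highest level of Grin2c, Dlgap1 and Fmr1 and the lowest level of Dlg4. These are miR-431 5 and miR-LacZ 1, and the order of libraries within a group was not tested.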
